A study of Homo sapiens with 6 samples.

Results

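The RNA interference machinery was followed in MDA-MB231 cells that carried a Ror1 hairpin (shRor1) and in cells that carried a control hairpin (shCTL). It was taken as 10 genes chosen by name, of 57445 genes in the table, and each of the 10 was found by its Ensembl identifier. They were the Argonautes AGO1, AGO2, AGO3 and AGO4, the nuclear processing genes DROSHA and DGCR8, the export receptor XPO5, the cytoplasmic processing genes DICER1 and TARBP2, and the silencing scaffold TNRC6A. MDA-MB231 is an established cell line from a triple-negative breast cancer. Both conditions went through lentiviral transduction with a pGIPZ vector at a multiplicity of infection of 5.0 and puromycin selection at 2 µg/ml, and each was sequenced in 3 libraries with reads of 50 bases. The labels name polyA RNA as the molecule, while the protocol starts from total RNA. The shRor1 cells expressed the hairpin against Ror1 from the integrated vector. For the shCTL cells the sources differ, since the study design and the paper name a non-sense or non-silencing hairpin and the sample labels name an empty vector. The headers of the shCTL columns also hold the word DMSO, which the shRor1 headers lack, and whether these cells received the solvent is not stated. The sources used here do not say whether the selected cells were 1 clone or a mixed population, or whether the libraries came from separate cultures, so the p-values measure the spread between these libraries only.

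RNA interference begins in the nucleus, where the enzyme DROSHA and its RNA-binding partner DGCR8, together called the Microprocessor, cut a hairpin out of a longer transcript. XPO5 carries the hairpin to the cytoplasm, where DICER1 with its partner TARBP2 removes the loop. One strand is then loaded into an Argonaute protein, which finds mRNAs that pair with it, and TNRC6 proteins link Argonaute to deadenylation and repression. Of the 4 human Argonautes, AGO2 is known for cutting a fully paired mRNA. Hairpins of pGIPZ vectors are embedded in a microRNA backbone and so enter this route at the Microprocessor. Cells need the same proteins for their own microRNAs, and the hairpin and the microRNAs share them.

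The site in ROR1 and the hairpin strand that pairs with it are shown first, because this strand is the one meant to guide the machinery in the shRor1 cells. Which strand was loaded, and at which base it began, was not measured. The site was read from the coding sequence of ROR1 in the reference, where it lies in exon 6 of the canonical transcript at chr1:64606087-64606105 of GRCh37 on the plus strand. The strand that pairs with it is the complement of the site and is the targeting sequence given in the methods. Capitals mark bases 2 to 8 of that strand as given, taken here as the seed, and the bases of the mRNA that pair with them.
ROR1 site: catggcagatcCTATAAAt
hairpin strand: aTTTATAGgatctgccatg

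ROR1 itself, the targeted receptor gene, had 15.42, 13.49 and 20.56 TPM in shCTL and 9.34, 11.93 and 14.85 TPM in shRor1. TPM takes the length of a gene into account and gives its transcripts out of 1000000 in the library. The lower shRor1 libraries lay below every control, and the highest shRor1 library lay within the control range. The paper shows the knockdown of Ror1 on the protein by western blot, which these RNA values do not measure. The log2 fold change was -0.43 on the log2(TPM + 1) scale (95% interval -0.88 to 0.03), with an unadjusted p of 0.0649 and a Benjamini-Hochberg adjusted p of 0.984 in the limma fit. The libraries had the profile of the line, with the mesenchymal genes VIM, CD44, CAV1, AXL and MSN between 347 and 2920 TPM, ESR1 at most at 0.21 TPM and PGR at most at 0.01 TPM. The other luminal genes of the marker list lay below the mesenchymal genes but were measured. CDH1 had between 0.80 and 1.47 TPM and GATA3 between 3.83 and 4.69 TPM. TFF1 had between 2.05 and 15.26 TPM, the last in the second shRor1 library. PTPRC and CD3E, markers of blood cells, were at most at 0.39 TPM, and PECAM1 was not matched in the table.

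Each of the 10 genes passed the filter of at least 1 TPM in at least 3 libraries, as did 16554 genes in all, so mRNA of each of them was measured in these cells. Their mean levels over the 6 libraries ran from 4.84 TPM for AGO4 to 76.1 TPM for DROSHA. Because TPM is scaled by length, the genes can be ordered, as far as the transcript lengths used in the estimate hold. A wrong length would shift a gene in all 6 libraries alike, which the ranges between libraries do not show. DROSHA came first, followed by XPO5 (61.4 TPM), TARBP2 (50.2 TPM), AGO2 (38.7 TPM), TNRC6A (26.3 TPM), DGCR8 (25.4 TPM), DICER1 (19.6 TPM), AGO1 (7.77 TPM), AGO3 (7.45 TPM) and AGO4. For 7 of the 9 pairs of neighbors the ranges over the 6 libraries did not overlap. The exceptions were TNRC6A and DGCR8, in this order in 5 of 6 libraries, and AGO1 and AGO3, in this order in 4 of 6 libraries, so neither pair can be ordered beyond its spread. DROSHA had a higher mean than 86.3% of the genes tested, AGO2 than 74.0%, DICER1 than 58.8% and AGO4 than 32.1%.

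**Figure D1:**
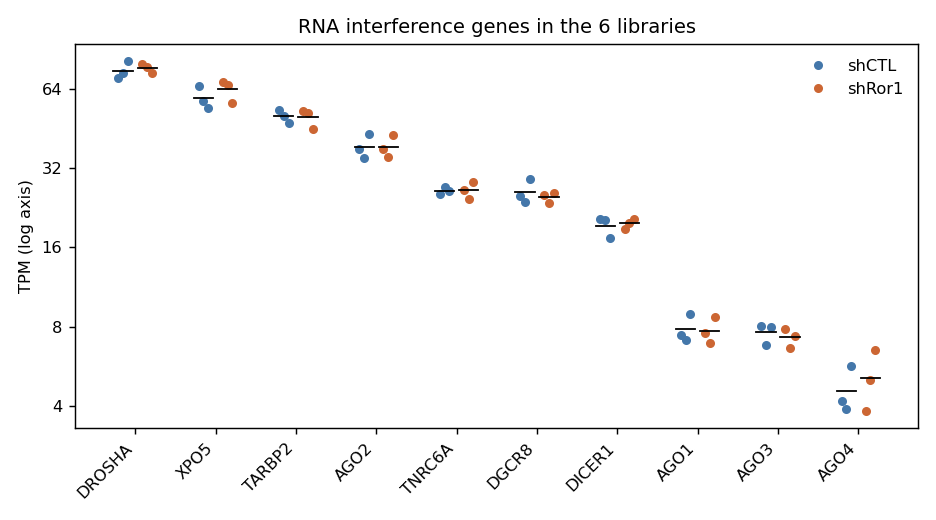
TPM (log axis) of the 10 genes in the 3 shCTL libraries (blue) and the 3 shRor1 libraries (orange), ordered by mean level, with a point per library and a black line at the mean of each condition. The conditions overlap for each of the 10 genes, and the levels run from 3.83 TPM for AGO4 to 81.53 TPM for DROSHA.

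In the unpaired comparison of shRor1 with shCTL, none of the 10 genes differed beyond the spread between libraries. With limma across the 16554 genes, 0 of the 10 had an adjusted p below 0.05, as did 0% of the genes tested, and 0 of the 10 had an unadjusted p below 0.05 in either direction. Among all genes tested, 2.85% (472) had such a p, 2.31% higher and 0.544% lower in shRor1. The 2 conditions overlapped for each of the 10 genes. Over the genes tested, they did not overlap for 7.78%, 6.48% higher and 1.3% lower in shRor1. With shares this small, 0 of 10 genes does not set the 10 genes apart from the genes tested. The difference of the means was smaller than the larger of the 2 within-condition standard deviations for 10 of 10 genes. Their log2 fold changes lay between -0.06 and 0.13, with a median of 0.002 beside 0.05 over all genes tested, and the median absolute change was 0.03 beside 0.09. Of the 10, 6 were above 0 and 4 below 0, where 67% of the genes tested were above 0, but this split followed the scaling, since it was 3 and 7 after quantile normalization and 2 and 8 after median ratio scaling. The median of all genes tested became 0.0015 with the former scaling and 0.00056 with the latter. In RNA from a bulk culture, a change in the number of cells with a transcript and a change per cell cannot be told apart.

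The intervals give the size of change that these libraries leave possible. On the log2(TPM + 1) scale, the 95% intervals of the fold change had their lowest bound at 0.795 for AGO4 and their highest at 1.5, also for AGO4. For the other 9 genes the intervals lay between 0.796 (AGO3) and 1.28 (XPO5). The narrowest interval was that of DROSHA, from 0.9 to 1.16. The median half-width of the interval was 0.24 for the 10 genes and 0.30 for all genes tested, in log2 units.

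**Figure D2:**
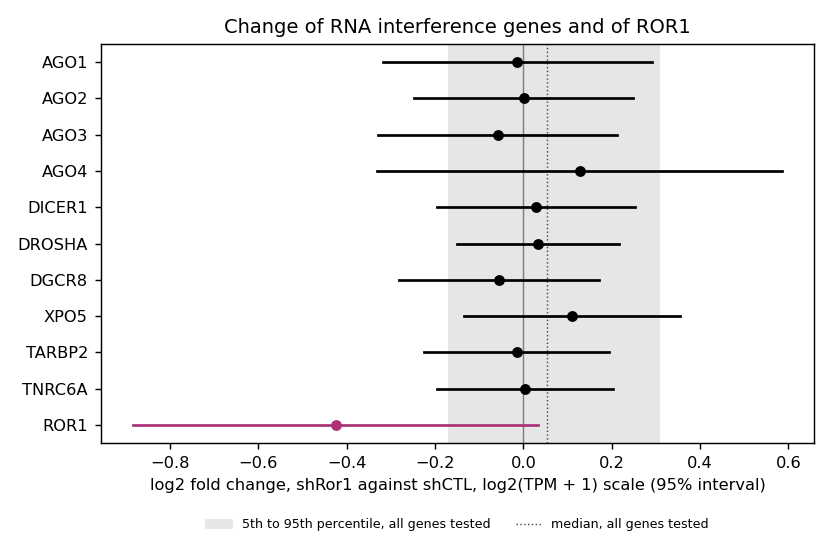
Log2 fold change of shRor1 against shCTL on the log2(TPM + 1) scale with its 95% interval from limma, for the 10 genes (black) and ROR1 (purple). The gray band holds the genes tested between the 5th and the 95th percentile (-0.17 to 0.31) and the dotted line their median (0.05). The 11 intervals include 0, and that of ROR1 reaches furthest to the left, to -0.88.

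The Microprocessor genes act first. DROSHA (ENSG00000113360.12, chr5:31400601-31532303 of GRCh37, minus strand, 36 exons), the nuclear ribonuclease, had 70.43, 73.89 and 81.53 TPM in shCTL and 79.40, 77.86 and 73.56 TPM in shRor1. Its highest and its lowest library were both controls, and the shRor1 values lay within their range. The means were 75.3 ± 5.68 TPM for shCTL and 76.9 ± 3.03 TPM for shRor1 (SD, n = 3 each), a log2 fold change of 0.03 ± 0.08 (standard error), with a limma adjusted p of 0.986. DGCR8 (ENSG00000128191.9, chr22:20067744-20099400, plus strand, 14 exons), the partner that binds the hairpin, had 25.00, 23.86 and 29.04 TPM in shCTL and 25.32, 23.68 and 25.68 TPM in shRor1. The third shCTL library stood above the other 5, which lay within 23.68 to 25.68 TPM. With means of 26.0 ± 2.72 and 24.9 ± 1.07 TPM (SD, n = 3 each), DGCR8 was at -0.05 ± 0.10 (log2 fold change with its standard error, limma adjusted p = 0.986). Within each library DROSHA was higher than DGCR8, by a ratio of 2.91 ± 0.16 for shCTL and 3.10 ± 0.21 for shRor1 (SD, n = 3 each), with overlapping ranges.

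The DGCR8 transcript also holds hairpins of its own, which the Microprocessor is known to cut. Both annotated microRNAs lie in exon 2 of the canonical transcript on chromosome 22 of GRCh37. They are shown with their seeds (bases 2 to 8) in capitals, from RefSeq with the positions matched on GRCh37. MiR-3618 lies in the 5′ untranslated region at chr22:20073320-20073341, and miR-1306-5p and miR-1306-3p lie in the coding sequence at chr22:20073595-20073616 and chr22:20073635-20073652, each on the plus strand.
hsa-miR-3618: uGUCUACAuuaaugaaaagagc
hsa-miR-1306-5p: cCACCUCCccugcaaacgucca
hsa-miR-1306-3p: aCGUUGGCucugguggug
The 3 seeds differ from each other. Both hairpin genes, MIR3618 and MIR1306, were listed at 0 TPM in each of the 6 libraries, so the table gives no value for these products beside the 25.4 TPM of their host.

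XPO5 (ENSG00000124571.13, chr6:43490072-43543775, minus strand, 32 exons), the export receptor for hairpins, had 65.68, 57.41 and 54.01 TPM in shCTL and 68.22, 66.39 and 56.75 TPM in shRor1. The first and second shRor1 libraries were the highest of the 6, and the third lay within the control range. The shCTL libraries averaged 59.03 ± 6.0 TPM and the shRor1 libraries 63.8 ± 6.16 TPM (SD, n = 3 each). The log2 fold change of XPO5, 0.11 ± 0.10 (standard error, limma unadjusted p = 0.325, adjusted p = 0.984), was the second largest of the 10 genes, and an exact two-sided permutation test of its 3 against 3 libraries gave p = 0.4, where this design cannot go below 0.1. XPO5 shares exonic sequence with POLR1C on the opposite strand, which had a mean of 48.7 TPM, and the end of DGCR8 shares a few bases with TRMT2A in the same way (27.4 TPM). Long noncoding RNA genes on the opposite strand also share exonic sequence with members. Their means were 2.32 TPM over DICER1 (DICER1-AS1), 0.687 TPM over TARBP2, 0.213 TPM over AGO1, 0.08 TPM over AGO3 and 0 TPM over DGCR8. These neighbors were named after their values were seen. The paper names a stranded library kit, but whether the counting used the strand is not given in the sources used here. On the same strand, the processed pseudogene ENSG00000219470 lies in an intron of XPO5 and had from 0.82 to 1.76 TPM.

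Of the cytoplasmic pair, DICER1 (ENSG00000100697.10, chr14:95552565-95624347, minus strand, 27 exons), the enzyme that removes the loop, had 20.43, 20.28 and 17.40 TPM in shCTL and 18.83, 19.83 and 20.57 TPM in shRor1. The third shCTL library was the lowest and the third shRor1 library the highest. Mean DICER1 levels were 19.4 ± 1.71 and 19.7 ± 0.87 TPM (SD, n = 3 each). The log2 fold change was 0.03 ± 0.10 (standard error, limma adjusted p = 0.987), and it became -0.04 without the third shCTL library. TARBP2 (ENSG00000139546.6, chr12:53894705-53900215, plus strand, 9 exons), the double-stranded RNA-binding partner of DICER1, had 53.37, 50.39 and 47.39 TPM in shCTL and 52.71, 52.09 and 44.95 TPM in shRor1. The third library was the lowest in both conditions. The log2 fold change of TARBP2 was -0.02 ± 0.09 (standard error, limma adjusted p = 0.993). TARBP2 mRNA was more abundant than DICER1 mRNA in each library, with a ratio of DICER1 to TARBP2 of 0.384 ± 0.018 for shCTL and 0.399 ± 0.053 for shRor1 (SD, n = 3 each). MIR3173, a microRNA gene in an intron of DICER1 on the same strand, was listed at 0 TPM in each of the 6 libraries.

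DICER1 is a known target of miR-103 and miR-107, which have the same seed. Their mature sequences from RefSeq are shown with the seed in capitals, followed by the 5 places in the 3′ untranslated region of the canonical DICER1 transcript that hold the complementary word ATGCTGC, in capitals. The 5 places lie in exon 27 on the minus strand of chromosome 14 of GRCh37, at chr14:95555794-95555814, chr14:95555193-95555213, chr14:95553989-95554009, chr14:95552718-95552738 and chr14:95552666-95552686 in the order shown.
hsa-miR-103a-3p: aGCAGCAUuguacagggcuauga
hsa-miR-107: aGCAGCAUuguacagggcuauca
DICER1 match 1: tcacacctaaaatATGCTGCa
DICER1 match 2: gatgcttcgtggaATGCTGCa
DICER1 match 3: cgcagtcctaactATGCTGCg
DICER1 match 4: tatttaccatcacATGCTGCa
DICER1 match 5: tcatacagtaatcATGCTGCa
The word was found in the 3′ untranslated region of 6 of the 10 genes, with 5 matches each in DICER1 and AGO2, 3 in AGO1, 2 in AGO4 and 1 each in AGO3 and TARBP2. It was in 14.3% of the 12084 untranslated regions searched, whose median length was 1325 bases, against a median of 3344 bases in the 10 genes. A match is a word in a sequence and does not show that the site is used.

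The Argonautes bind the guide strand, and AGO2 made up the greater part of their summed TPM. AGO2 (ENSG00000123908.7, chr8:141530255-141645732, minus strand, 19 exons) had 37.90, 35.01 and 43.10 TPM in shCTL and 37.88, 35.46 and 42.64 TPM in shRor1. The 3 values of one condition nearly matched those of the other, and the third library was the highest in both. Both conditions averaged 38.7 TPM, with SDs of 4.1 and 3.65 TPM (n = 3 each), and the log2 fold change was 0.001 ± 0.11 (standard error, limma adjusted p = 0.999). Its 95% interval, as a fold change, was 0.843 to 1.19.

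AGO1, a paralogue that is known to repress mainly without cutting, had 7.40, 7.10 and 8.96 TPM in shCTL and 7.58, 6.93 and 8.67 TPM in shRor1. AGO3 had 8.03, 6.83 and 8.0 TPM in shCTL and 7.84, 6.65 and 7.34 TPM in shRor1. For both genes the second library was the lowest in either condition, and the log2 fold changes were -0.01 for AGO1 (standard error 0.13) and -0.06 for AGO3 (standard error 0.12). AGO4 had 4.15, 3.87 and 5.66 TPM in shCTL and 3.83, 5.02 and 6.49 TPM in shRor1. It was the least abundant of the 10 genes and the most variable, with a coefficient of variation of 21.1% in shCTL and 26.1% in shRor1. The AGO4 log2 fold change of 0.13 ± 0.20 (standard error, limma adjusted p = 0.984) was the largest of the 10 and became -0.03 without the third shRor1 library.

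Summed over the 4 genes, the Argonaute mRNA was 58.7 ± 6.54 TPM for shCTL and 58.8 ± 5.72 TPM for shRor1 (SD, n = 3 each). The share of AGO2 in this sum varied by less than a percentage point, from 65.5% to 66.3% over the 6 libraries, although the sum itself ran from 52.8 to 65.7 TPM. The mean share of AGO2 was 65.9% ± 0.36 for shCTL and 65.8% ± 0.45 for shRor1 (SD, n = 3 each). AGO1 held 13.3% ± 0.40 and 13.1% ± 0.27, AGO3 held 13.03% ± 0.90 and 12.4% ± 1.23, and AGO4 held 7.72% ± 0.77 and 8.65% ± 1.72 (SD, n = 3 each). AGO4 moved most, from 6.70% in the first to 9.96% in the third shRor1 library. A share within a library does not depend on how the library was scaled, but it does depend on the transcript lengths used for each gene.

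**Figure D3:**
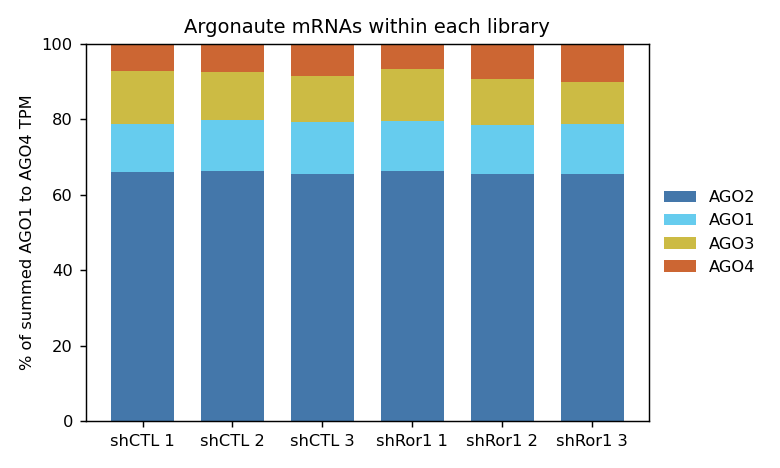
Share of AGO2, AGO1, AGO3 and AGO4 in their summed TPM, in percent, for each of the 6 libraries, stacked to 100. AGO2 takes 65.5% to 66.3% of each bar, and the AGO4 part at the top varies most, from 6.70% to 9.96%.

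AGO4, AGO1 and AGO3 stand next to each other on the plus strand of chromosome 1 and span 264485 bases (chr1:36273617-36538101, GRCh37), with 185 bases between AGO1 and AGO3. AGO2 lies on chromosome 8. The coding sequences have nearly the same length, with 2571 bases in AGO1, 2577 in AGO2, 2580 in AGO3 and 2583 in AGO4, while the canonical transcripts run from 7272 bases in AGO4 to 19660 in AGO3. The clustered genes had from 3.83 to 8.96 TPM in any library, all below the lowest AGO2 value of 35.01 TPM. The similar coding sequences could have made reads ambiguous between the paralogues. No window of 50 bases, the read length, was shared between the canonical transcripts of any of the 10 genes. With canonical transcripts of other genes in the table, AGO3 shared 1.07% of its windows, AGO4 0.222% and the other 8 genes 0%. The search took exact matches in a single transcript per gene. Whether reads were ambiguous with mismatches or in other transcripts was not tested.

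AGO3 also holds the word CTATAAA, the match to the hairpin seed shown above, 5 times in a 3′ untranslated region of 16758 bases. AGO1 holds it 1 time in 10928 bases, and the 3′ untranslated regions of the other 8 genes do not hold it, while 15.8% of the regions searched do. The regions searched had a median length of only 1325 bases, and a match does not show that the site is used. The log2 fold change of AGO3 had a 95% interval from -0.33 to 0.21.

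TNRC6A (ENSG00000090905.13, chr16:24621530-24838953, plus strand, 25 exons), the scaffold that joins Argonaute to the deadenylases, had 25.54, 27.04 and 26.20 TPM in shCTL and 26.39, 24.36 and 28.34 TPM in shRor1. The shCTL values lay within the range of the shRor1 values, and the coefficient of variation in shCTL, 2.86%, was the lowest of the 10 genes. With means of 26.3 ± 0.75 and 26.4 ± 1.99 TPM (SD, n = 3 each), TNRC6A was at 0.003 ± 0.09 (log2 fold change with its standard error, limma adjusted p = 0.996). Its paralogues were lower, with 7.36 ± 1.19 TPM in shCTL and 8.03 ± 1.81 TPM in shRor1 for TNRC6B and 4.76 ± 0.25 TPM and 4.70 ± 0.62 TPM for TNRC6C (SD, n = 3 each). TNRC6A held 68.5% ± 2.44 of the summed TNRC6 TPM in shCTL and 67.5% ± 1.5 in shRor1 (SD, n = 3 each).

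As each difference between the conditions was below the larger SD within them, the libraries were also compared by their position in the table. The third library was the highest of its condition in both conditions for AGO1, AGO2, AGO4 and DGCR8, and the lowest in both for XPO5 and TARBP2. Over all genes tested, 33.6% were highest in the third library of both conditions and 13.2% were lowest there. The closest 2 of the 6 libraries were the first shCTL and the first shRor1 library, with a median absolute difference of 0.10 on the log2(TPM + 1) scale. The second libraries of the 2 conditions differed by 0.14 and the third by 0.13. Pairs within shCTL differed by 0.11 to 0.16 and pairs within shRor1 by 0.17 to 0.20. Each shRor1 library was thus closest to the control at its position. Compared by position, XPO5 was higher and AGO3 and ROR1 were lower in shRor1 each time, and the remaining members went both ways. Whether libraries at the same position belong together was not tested. Without the third library of either condition, an alternative chosen after the data were seen, the log2 fold changes were -0.07 for DICER1, 0.004 for DGCR8, 0.01 for TARBP2 and -0.05 for TNRC6A, opposite in sign to those above, and 0 of the 10 genes had an unadjusted p below 0.05.

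**Figure D4:**
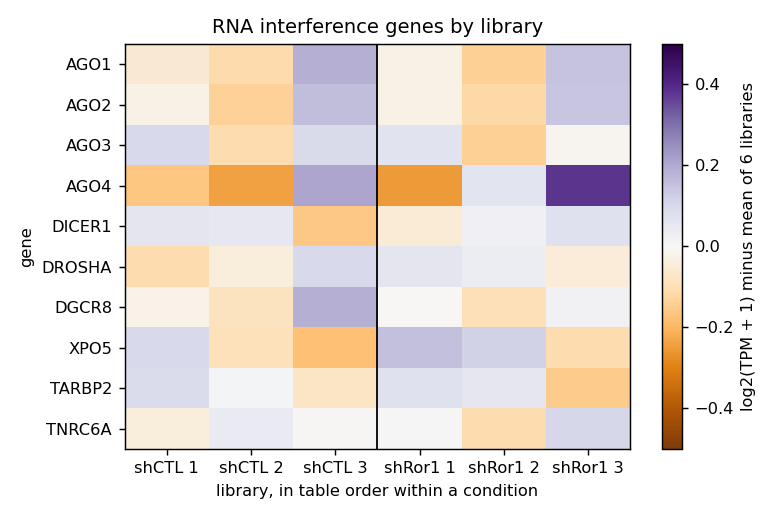
Log2(TPM + 1) of each of the 10 genes minus its mean over the 6 libraries, with the 3 shCTL libraries left and the 3 shRor1 libraries right of the black line, purple above and orange below the mean. The third libraries of both conditions are above the mean for AGO1, AGO2, AGO4 and DGCR8 and below it for XPO5 and TARBP2.

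Promoter sequences of 300 bases around the start were given by RefSeq (GRCh38.p14) for 9 of the 10 genes, not including AGO2. On either strand, the word GGGCGG was found in 8 of 9, against 69.6% of 10605 promoters of genes tested, CCAAT in 6 of 9 against 36.9%, CCGGAAG in 2 of 9 against 19.7%, and TATAAA in 0 of 9 against 5.58%. The median GC content was 72.3% beside 65.0%. These are counts of words and do not show which factors bind there.

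The other genes of small RNA pathways were described from a list of 48 genes, of which 47 were matched in the table (DCP1A was not) and 40 passed the filter. Of the 40, 0 had an adjusted p below 0.05 (limma) and 2 had an unadjusted p below 0.05, both higher in shRor1, against 2.31% of the genes tested in that direction. The median log2 fold change of the 40 was 0.04 beside 0.05 over all genes tested, with 26 above and 14 below 0.

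**Figure D5:**
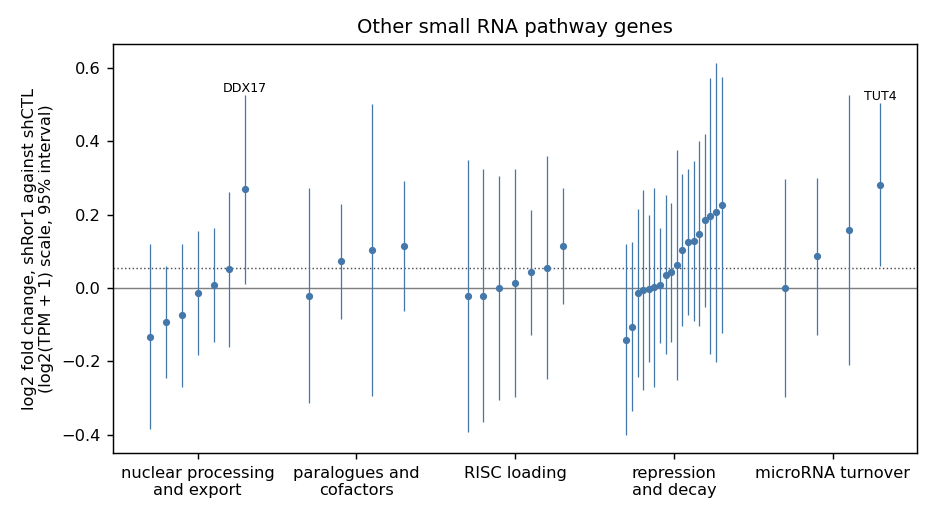
Log2 fold change of shRor1 against shCTL on the log2(TPM + 1) scale with its 95% interval from limma, for the 40 tested genes of the small RNA pathway list in 5 groups, sorted within a group. The dotted line is the median of all genes tested (0.05). The names mark DDX17 and TUT4, the 2 genes with an unadjusted p below 0.05.

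DDX17, an RNA helicase that associates with the Microprocessor, had 66.14, 78.40 and 76.84 TPM in shCTL and 77.11, 94.70 and 96.07 TPM in shRor1. The first shRor1 library lay within the control range and the other 2 above it. This was a log2 fold change of 0.27 ± 0.11 (standard error, limma unadjusted p = 0.0425, adjusted p = 0.984). The 7 genes of nuclear processing and export had a median of -0.01 with 3 above and 4 below 0.

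TUT4, a uridylyltransferase that tails microRNA precursors, had 21.71, 22.34 and 25.03 TPM in shCTL and 26.81, 27.05 and 30.71 TPM in shRor1. Each shRor1 library lay above each control, and the exact permutation test gave p = 0.1, the smallest possible with 3 against 3. The log2 fold change was 0.28 ± 0.10 (standard error, limma unadjusted p = 0.0198, adjusted p = 0.984). The 4 tested genes of microRNA turnover, TUT4 included, had a median of 0.12 with 3 above and 1 below 0.

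PRKRA, the other partner protein of DICER1, also had each shRor1 library above each control, with 39.82, 40.15 and 37.50 TPM against 40.94, 45.03 and 41.51 TPM. The difference on the log2 scale was 0.11 (95% interval -0.06 to 0.29, limma adjusted p = 0.984). The conditions did not overlap for 4 of the 40 genes, higher in shRor1 in each case, where 6.48% of the genes tested did so in that direction. Besides TUT4 and PRKRA these were TSNAX (log2 fold change 0.12) and CNOT6L (0.13), which were chosen for naming after their values were seen.

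The most abundant genes of the list were HSPA8 with a mean of 2713 TPM, PABPC1 with 2410 TPM and HSP90AB1 with 1723 TPM. HSPA8 and HSP90AB1 are chaperones that help load Argonaute, and PABPC1 is the poly(A)-binding protein that TNRC6 proteins contact. HSPA8 had 2580, 3116 and 2480 TPM in shCTL and 2785, 3118 and 2197 TPM in shRor1, lowest in the third library of both conditions. The log2 fold changes were -0.02 for HSPA8, -0.01 for PABPC1 and -0.001 for HSP90AB1. Of the 18 tested genes of repression and decay, 13 were above and 5 below 0, where 67% of all genes tested were above 0 before and 50.5% after quantile normalization. Of these 18, 0 had an unadjusted p below 0.05, beside 2.85% of all genes tested.

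The members of the list that did not pass the filter were LIN28A and LIN28B, which hold back the maturation of let-7, TRIM71, a known let-7 target, and PIWIL1, PIWIL2, PIWIL3 and PIWIL4, the germline relatives of the Argonautes. LIN28B was listed at 0 TPM in each library and TRIM71 in 5 of 6 libraries. LIN28A had from 0.33 to 0.61 TPM, and PIWIL2, the highest of its family, had from 0.80 to 1.14 TPM.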

How the data were processed

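RNA of shCTL and shRor1 MDA-MB231 cells (1000 ng of total RNA, 3 libraries per condition) was read as single ends of 50 bases. The authors mapped reads to GRCh37 with STAR using Ensembl 73 and estimated gene abundances with RSEM (version 1.2.5 in the submitters' processing notes). The deposited table is named for expected counts, but its values are TPM with 2 decimals, so tests on counts could not be fitted and the depth cannot be read from the table. The mapped reads per library that the paper lists were not used here. Both conditions have 1 header without a replicate number, and libraries are named by column order. The number of columns left unused was 0.

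Kept were the genes (16554 of 57445) that reached 1 TPM in 3 or more libraries. Log2(TPM + 1) was fitted by condition with limma 3.58.1 in R 4.3.3 (trended prior), and p-values were adjusted by Benjamini-Hochberg at 0.05 over all genes tested. Fold changes on this scale understate those of low genes. Exact permutation tests were two-sided. The fit was tested on simulated data in 10 runs with 200 changed genes. It recovered 72.7% of them at a log2 change of 1 and 95.05% at 2, with means of 8.4 and 7.3 false calls per run. The simulated libraries were independent and their changes larger than those of the 10 members, so smaller changes and differences shared between libraries were not tested. Symbols and positions came from GENCODE 44 on GRCh37, and 55022 identifiers matched.

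The members and lists were chosen with earlier results of these data known. Named genes are the 10 members, ROR1, the markers, genes annotated over a member on its strand, and from the pathway list the paralogues of members, the 3 most abundant genes, those with an unadjusted p below 0.05 and those not kept. Genes named outside this rule are marked as chosen after their values were seen. Alternatives were no filter, a mean of at least 5 TPM, a pseudocount of 0.1, quantile normalization, median ratio scaling, no trend, robust empirical Bayes, array weights, protein-coding genes alone, and leaving out single libraries or the third library of both conditions.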

Additional observations from a re-analysis of the deposited data

How the results depend on the processing

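No paired analysis was possible because no replicate number stands in the column headers. The tests that need read counts were not run. Under the 16 alternatives (1 of them, without the third library of both conditions, chosen after the data were seen), 0 of the 10 genes (0 of 9 at a mean of at least 5 TPM, where AGO4 was not tested) had an adjusted or an unadjusted p below 0.05, and their log2 fold changes stayed between -0.14 and 0.29. AGO3 (-0.14 to -0.0025), XPO5 (0.049 to 0.191), ROR1 (-0.58 to -0.26), DDX17 (0.19 to 0.37), TUT4 (0.22 to 0.34) and PRKRA (0.055 to 0.14) kept their sign. For AGO3 the extremes came with quantile normalization and without the second shRor1 library, for XPO5 without the third shCTL and without the third shRor1 library, and for ROR1 without the third shRor1 and without the third shCTL library. ROR1 had an unadjusted p of 0.0151 with quantile normalization, 0.0233 with median ratio scaling, 0.0353 without the third library of both conditions and 0.0195 to 0.207 when single libraries were left out, with adjusted p-values of at least 0.625 (limma). After quantile normalization, log2 fold changes were -0.043 for AGO2, -0.026 for DICER1, -0.052 for TNRC6A, 0.027 for HSP90AB1, 0.049 for HSPA8 and 0.054 for PABPC1. With median ratio scaling they were -0.059 for AGO2, -0.029 for DICER1, -0.027 for DROSHA and -0.056 for TNRC6A. With array weights they were 0.0059 for AGO1, -0.0064 for DICER1 and -0.012 for TNRC6A. Without the third library of both conditions they were -0.071 for DICER1, 0.0036 for DGCR8, 0.015 for TARBP2, -0.050 for TNRC6A, 0.051 for HSP90AB1, 0.055 for HSPA8 and 0.025 for PABPC1. When single libraries were left out, log2 fold changes ranged from -0.091 to 0.076 for AGO1, -0.070 to 0.080 for AGO2, -0.030 to 0.286 for AGO4, -0.043 to 0.067 for DICER1, -0.013 to 0.091 for DROSHA, -0.111 to 0.026 for DGCR8, -0.058 to 0.057 for TARBP2, -0.048 to 0.057 for TNRC6A, -0.056 to 0.217 for TNRC6B, -0.103 to 0.052 for TNRC6C, -0.082 to 0.133 for HSP90AB1, -0.133 to 0.120 for HSPA8 and -0.120 to 0.073 for PABPC1.

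Over all genes, the number with an adjusted p below 0.05 was 0 and became 1 without the third library of both conditions. Leaving out single libraries gave 0 to 1, with 1 when the third shRor1 library was left out. The number at an unadjusted p below 0.05 was 472, and 1363 without a filter, 227 at a mean of at least 5 TPM, 222 among protein-coding genes, 859 with array weights. It ran from 278 to 1720 when a single library was left out (278 and 289 without the second and first shCTL library, 1720 without the first shRor1 library). Among the 40 other pathway genes it was 2, and 1 without a filter, with quantile normalization, with median ratio scaling and without the mean-variance trend. Leaving out single libraries gave 0 to 7, with 0 without the first shCTL or the third shRor1 library, 1 without the second shCTL or the second shRor1 library and 7 without the first shRor1 library. Fewer or more genes were tested under the filters, and otherwise the cause was not tested. Since TPM holds no depth, the part of counting error in the spread was not estimated.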
